A study of Mus musculus with 18 samples.

Results

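In all, 10 genes of glucocorticoid signalling were followed in the refed mouse liver: the receptor Nr3c1, the activating enzyme Hsd11b1, and the receptor target genes Fkbp5, Tsc22d3, Sgk1, Klf9, Klf15, Dusp1, Zbtb16 and Errfi1. They were listed by name, with earlier results of these data known. They are 10 of the 15572 genes in the RNA-seq table, 14151 of which were tested. All 10 passed the filter on low counts.

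The study asked how the histone demethylase JMJD1C acts on transcription in liver after feeding. It holds 18 samples of C57BL/6J mouse liver, in groups of 2. RNA-seq compared refed JMJD1C-LKO mice with refed WT mice, each library from pooled RNA (4 libraries). ATAC-seq, which marks open chromatin, covered refed JMJD1C-LKO livers and WT livers in both feeding states (6 samples), and ChIP-seq for H3K9me2, a histone mark of repressed chromatin, covered WT livers in both feeding states (4 samples, with 4 input libraries). The JMJD1C-LKO mice carried floxed Jmjd1c alleles and Cre recombinase driven by the albumin promoter, so that the deletion was aimed at hepatocytes and not at other liver cells. Mice were 12 weeks old unless otherwise specified and had been on chow for 6 to 8 weeks. The labels state an overnight fast followed by a high carbohydrate diet for 6 h, and the methods give 8 to 16 h of feeding. That label text is the same for all 18 samples, those called fasted included, so the fasted and refed groups of the chromatin assays rest on the letters F and R in the sample titles. No RNA-seq of fasted liver was analysed, so the RNA values describe the refed state alone. Nothing in the labels ties the 2 RNA samples of a group to separate pools of animals, and p-values then measure the spread between these samples.

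Glucocorticoids pass into the cell and bind the receptor, which is held ready by heat-shock chaperones, moves to the nucleus and binds DNA as a dimer at paired copies of the letters AGAACA set head to head. In liver the hormone is known for raising gluconeogenic and amino acid catabolic enzymes in the fasted state. The enzyme Hsd11b1 makes active hormone inside the hepatocyte from its inert form, and targets such as Fkbp5 and Tsc22d3 are widely used as readouts of receptor activity.

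Several stretches of DNA at these genes are given here 5′ to 3′ on the plus strand of GRCm38.p6 (mm10). The first is the 250 bases before 1 of the Sgk1 starts, at chr10:21993640-21993889 outside all Sgk1 exons, shown because it was the only one of the 16 RefSeq promoters listed for 8 of the members that held the full receptor motif. This stretch was picked for its letters, and no ATAC-seq or H3K9me2 summit lay inside it. Promoters for Nr3c1 and Zbtb16 were not used here. Capitals mark each AGAACA on either strand, and the full palindrome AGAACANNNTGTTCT lies 189 bases before the start.
Sgk1 promoter: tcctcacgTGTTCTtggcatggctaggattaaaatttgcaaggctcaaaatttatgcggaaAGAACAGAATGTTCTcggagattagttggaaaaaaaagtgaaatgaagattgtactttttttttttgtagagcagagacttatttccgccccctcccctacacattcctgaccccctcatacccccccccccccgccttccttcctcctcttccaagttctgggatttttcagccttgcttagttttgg
Of 32851 RefSeq promoters of the same 300-base length, searched on both strands, 3 held the full motif (0.00913%), 156 held the looser form GNACANNNTGTNC, which every full motif also matches (0.475%), and 19% held AGAACA alone. Among the 16 promoters of the members, 4 held AGAACA, 3 of them Sgk1 promoters and the other of Tsc22d3. A match of letters is a description and does not show that the receptor was bound.

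The other stretches lie under ATAC-seq summits, and each is the 151 bases centred on the summit. At Zbtb16, a recurrent intron summit at chr9:48740730-48740880 was present in 4 of the 6 ATAC-seq samples, and another intron summit at chr9:48723690-48723840, seen in WT fasted replicate 1 alone, was the only member summit with the GNACANNNTGTNC form within 100 bp. At Dusp1, the summit of WT refed replicate 1 lay at chr17:26508605-26508755, upstream of the start. Capitals mark TAGG in the recurrent Zbtb16 window, AGAACA and GNACANNNTGTNC in the second Zbtb16 window, and TGACGTCA, the palindromic letters known as the cyclic AMP response element, in the Dusp1 window.
Zbtb16 intron, recurrent: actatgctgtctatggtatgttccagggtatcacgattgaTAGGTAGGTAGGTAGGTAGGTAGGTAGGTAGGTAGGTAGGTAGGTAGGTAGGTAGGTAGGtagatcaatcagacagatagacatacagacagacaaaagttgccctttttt
Zbtb16 intron, fasted: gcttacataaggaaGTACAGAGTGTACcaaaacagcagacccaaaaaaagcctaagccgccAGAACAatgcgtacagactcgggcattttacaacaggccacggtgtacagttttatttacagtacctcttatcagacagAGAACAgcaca
Dusp1 upstream: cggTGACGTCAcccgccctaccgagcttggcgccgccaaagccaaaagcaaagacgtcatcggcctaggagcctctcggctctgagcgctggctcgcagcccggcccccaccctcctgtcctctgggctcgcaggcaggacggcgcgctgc
The recurrent Zbtb16 window holds a run of 15 copies of TAGG. The TGACGTCA search was added after the Dusp1 window had been seen. It matched 588 of the 32851 promoters (1.79%), among the members those of Dusp1 and of 1 Errfi1 start. Of the 5027 summit windows of WT refed replicate 1, each of 151 bases, 34 held TGACGTCA (0.676%).

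Across the 4 RNA libraries the total estimated counts ranged from 51265128 to 54400509. Jmjd1c itself was 21.99 and 22.78 CPM in the WT libraries and 20.04 and 20.48 CPM in the libraries labelled JMJD1C-LKO, a log2 fold change of −0.14 ± 0.08 (SE, adjusted p = 0.23, edgeR's quasi-likelihood test with Benjamini-Hochberg adjustment, as for every adjusted p here). The deposited values are sums over whole transcripts and do not isolate the floxed part, so the deletion could not be checked from them. The paper itself reports lower Jmjd1c mRNA by RT-qPCR and no detectable protein in JMJD1C-LKO livers. Whether those livers are the ones sequenced is not stated. Directions below are those of the labelled groups. CPM is the count per 1e+06 counts of the TMM-scaled library, and each fold change is of the libraries labelled JMJD1C-LKO over WT.

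Most of the glucocorticoid target genes stood higher in the libraries labelled JMJD1C-LKO. Of the 10 genes, 7 were higher (Fkbp5, Tsc22d3, Sgk1, Klf9, Klf15, Zbtb16 and Errfi1), 1 was lower (Nr3c1) and 2 did not pass the threshold (Hsd11b1 and Dusp1), where 14.6% of all genes tested were called higher and 13.4% lower at an adjusted p under 0.05. The median log2 fold change was 0.79 over the 10 genes and 0.006 over all genes. For the same 7 genes both libraries labelled JMJD1C-LKO lay above both WT libraries, as they did for 33.7% of all genes, and for Nr3c1 both lay below, as for 33.8% of all genes. The WT replicates were close to each other, and Sgk1 and Zbtb16 differed most between the 2 libraries labelled JMJD1C-LKO.

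**Figure D1:**
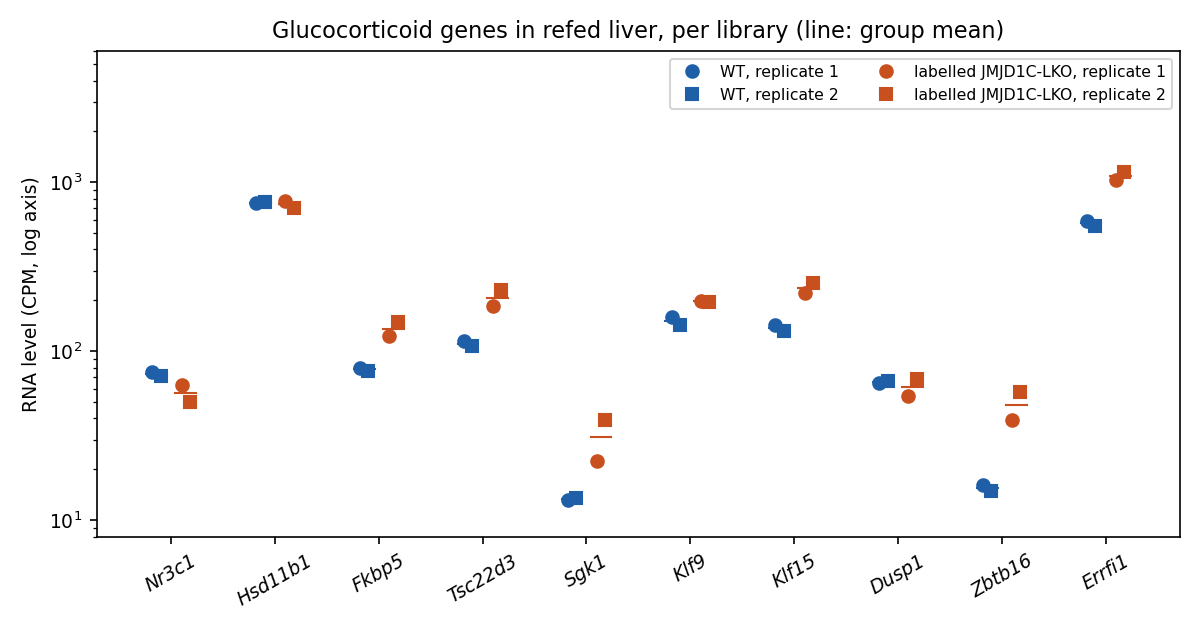
RNA level of the 10 glucocorticoid genes in each of the 4 refed liver libraries, in CPM on a log axis, with a line at each group mean (n = 2). For the 7 genes called higher, both libraries labelled JMJD1C-LKO sit above both WT libraries, while Hsd11b1 and Dusp1 overlap between the groups.

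The receptor was lower. Nr3c1 (chromosome 18) measured 74.9 and 71.5 CPM in WT and 63.4 and 50.2 CPM in the libraries labelled JMJD1C-LKO. The groups did not overlap, and the WT values lay closer together than the others. The change was −0.37 ± 0.11 on the log2 scale (adjusted p = 0.032). This call was lost without some of the libraries: the adjusted p was 0.2 without WT replicate 1, 0.14 without WT replicate 2 and 0.092 without JMJD1C-LKO replicate 2, where the change fell to −0.21, while without JMJD1C-LKO replicate 1 the change was −0.55 (adjusted p = 0.00043). With the highest transcript per gene in place of the sum the adjusted p was 0.083. Nr3c1 has 1 counted transcript, so its own counts were unchanged in that setting, and its change was −0.36.

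The activating enzyme was not distinguishable between groups. Hsd11b1 (chr1:193221640-193264045, minus strand) measured 751 and 760 CPM in WT and 773 and 706 CPM in the libraries labelled JMJD1C-LKO. The WT values lay inside the range of the other group, and the change was −0.03 ± 0.08 (adjusted p = 0.82). Its 2 transcripts kept their proportions, with 72.3% to 72.5% of the gene's estimated counts on the transcript with the downstream start in every library.

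Feedback and anti-inflammatory targets were higher. Fkbp5 (chr17:28398753-28486149, minus strand) encodes a co-chaperone that lowers the receptor's affinity for hormone. It measured 79.9 and 76.6 CPM in WT and 123.2 and 149.0 CPM in the libraries labelled JMJD1C-LKO. The groups did not overlap, and the change was 0.80 ± 0.10 (1.74-fold, adjusted p = 0.00063). Tsc22d3 (chrX:140539528-140600522, minus strand), which encodes the leucine zipper protein GILZ, a mediator of the anti-inflammatory action of the hormone, measured 114 and 107 CPM in WT and 185 and 229 CPM in the other group. Again the groups did not overlap, with a change of 0.90 ± 0.11 (1.87-fold, adjusted p = 0.00047). The transcript NM_010286 carried most of the Tsc22d3 counts, 60.1% and 69.7% in WT and 71.1% and 71.3% in the libraries labelled JMJD1C-LKO, and its mean CPM was 2.06 times that of WT. The transcript NM_001077364, which begins at the promoter with an AGAACA, was at 13.9 and 11.7 CPM in WT and 16.5 and 16.9 CPM in the other group.

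Sgk1, a kinase also induced by the hormone, rose on counts spread over 5 transcripts. The gene (chr10:21882184-21999903, plus strand) measured 13.2 and 13.5 CPM in WT and 22.5 and 39.4 CPM in the libraries labelled JMJD1C-LKO. The WT libraries were nearly equal and replicate 2 of the other group was well above its replicate 1. The change was 1.22 ± 0.21 (2.32-fold, adjusted p = 0.0029), and it was 0.75 without JMJD1C-LKO replicate 2 and 1.56 without JMJD1C-LKO replicate 1, past the threshold both times. The transcript NM_001161850, whose promoter is printed above, was a minor one. It measured 0.687 and 0.474 CPM in WT and 1.83 and 1.53 CPM in the libraries labelled JMJD1C-LKO, a ratio of means of 2.89. The 2 main transcripts, NM_001161848 and NM_011361, had ratios of 2.35 and 2.44. These 5 transcripts share most of their exons, so the split of counts between them is an estimate, and the ratios were not tested.

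The Krüppel-like factors were higher by different amounts. Klf9 (chr19:23141226-23168129, plus strand), a zinc finger transcription factor, measured 160 and 143 CPM in WT and 199 and 196 CPM in the libraries labelled JMJD1C-LKO. The groups did not overlap, but the change was the smallest of the 7, 0.38 ± 0.08 (1.3-fold, adjusted p = 0.0095), and the call was lost without WT replicate 2 (0.30, adjusted p = 0.16). Klf15 (chr6:90462576-90479686, plus strand), a regulator of amino acid catabolism and gluconeogenesis, measured 143 and 132 CPM in WT and 220 and 253 CPM in the other group. Here the groups lay well apart, with a change of 0.78 ± 0.09 (1.72-fold, adjusted p = 0.00051).

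Among regulators of growth factor signalling, 1 was higher and 1 was not. Errfi1 (chr4:150853796-150868889, plus strand), a feedback inhibitor of the EGF receptor, measured 586 and 554 CPM in WT and 1035 and 1156 CPM in the libraries labelled JMJD1C-LKO. Both values were well above those of WT, with a change of 0.94 ± 0.09 (1.92-fold, adjusted p = 0.00018). Dusp1 (chr17:26505591-26508472, minus strand), a phosphatase of MAP kinases and a rapidly induced target, measured 65.3 and 66.2 CPM in WT and 54.3 and 68.2 CPM in the other group. The WT values lay between those 2, and the change was −0.10 ± 0.11 (adjusted p = 0.51). It was 0.05 (adjusted p = 0.68) without JMJD1C-LKO replicate 1 and −0.27 (adjusted p = 0.033) without JMJD1C-LKO replicate 2.

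Zbtb16 had the largest change of the 10 genes. It encodes a zinc finger repressor (chr9:48651797-48836225, minus strand) and measured 16.1 and 14.9 CPM in WT and 39.0 and 57.5 CPM in the libraries labelled JMJD1C-LKO. Both values of the second group were more than 2 times the WT values. The change was 1.64 ± 0.16 (3.11-fold, adjusted p = 0.00019), and between 1.33 and 1.88 with each library left out.

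**Figure D2:**
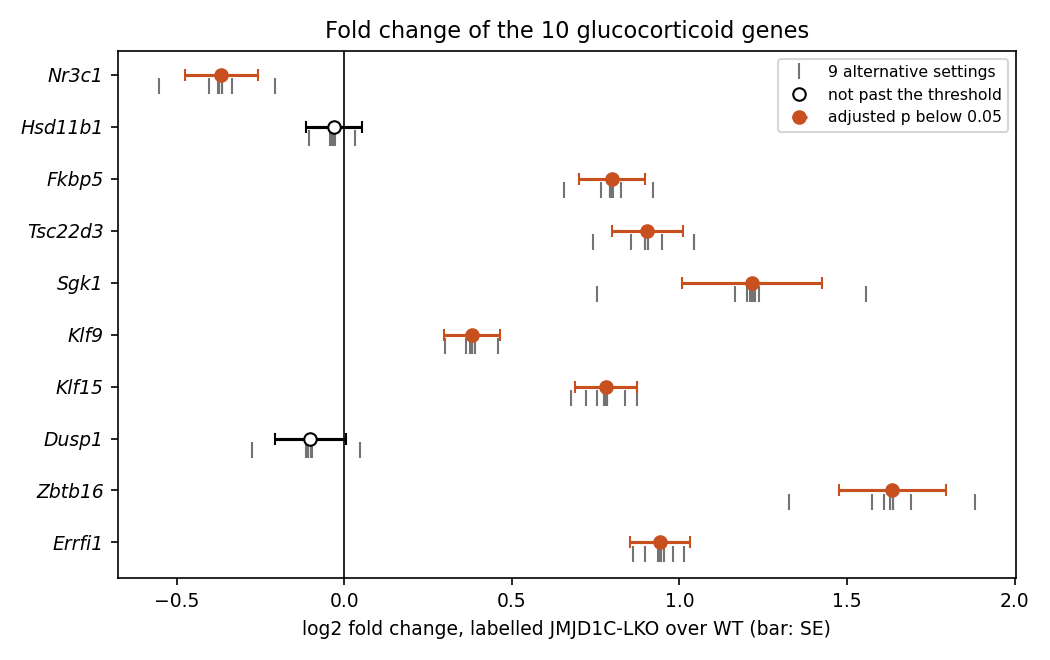
The log2 fold change of each of the 10 genes, libraries labelled JMJD1C-LKO over WT, with its standard error, and below it the values under 9 alternative settings as ticks. Zbtb16 is farthest to the right at 1.64, Nr3c1 is the only called gene to the left of 0, and the ticks of Dusp1 and Hsd11b1 fall on both sides of 0.

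Compared per length, as CPM per kb of transcript (RefSeq exon lengths of GRCm38.p6), the order of levels in WT was Hsd11b1 (558 ± 4.9, SD, n = 2), Errfi1 (187 ± 7.4), Klf15 (56.7 ± 3.4), Tsc22d3 (48.5 ± 3.4), Dusp1 (33.9 ± 0.34), Klf9 (33.8 ± 2.6), Fkbp5 (20.1 ± 0.59), Nr3c1 (11.0 ± 0.37), Sgk1 (5.46 ± 0.091) and Zbtb16 (2.04 ± 0.11). Dusp1 and Klf9 did not differ beyond their spread in WT, and the libraries of all other neighbours in the order were separate. In the libraries labelled JMJD1C-LKO the levels per kb of Klf9 (44.0 ± 0.47) and Fkbp5 (35 ± 4.7) stood above that of Dusp1 (31.6 ± 5.0), though Fkbp5 and Dusp1 overlapped. The level per kb of Sgk1 (12.7 ± 4.9) overlapped that of Nr3c1 (8.52 ± 1.4). For a few of the members the transcript ends in the count table differ from those of this annotation, which changes their length and so their place.

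Markers of some other liver cells moved with these differences. The shares called over all genes tested were 14.6% higher and 13.4% lower. Of 12 macrophage and leukocyte markers, 9 were higher and none lower in the libraries labelled JMJD1C-LKO. Their summed level was 270 and 277 CPM in WT and 711 and 1081 CPM in the libraries labelled JMJD1C-LKO. A large part of that rise was Cd74 alone, at 45.1 and 43.0 CPM in WT and 273 and 457 CPM in the other group. Of 6 endothelial markers 4 were higher (1 without WT replicate 2), with summed levels of 91.8 and 88.1 CPM against 118 and 156 CPM. None of the markers of these 2 lists had a count of 0 in any library. Of 6 stellate cell markers 2 were higher, with summed levels of 178 and 184 CPM against 198 and 241 CPM, and the count was 4 (with 1 lower) without JMJD1C-LKO replicate 1 and 0 without any other library. Of 5 erythroid markers 1 was higher, with summed levels of 1059 and 587 CPM against 927 and 917 CPM, and the count was 5 without WT replicate 1 and 0 without WT replicate 2 or JMJD1C-LKO replicate 1. Of 3 pancreas markers tested 1 was higher, and none without either WT library. Of 5 cholangiocyte markers none passed, and 1 was lower without JMJD1C-LKO replicate 2. Of 8 hepatocyte markers none passed the threshold, which held in every setting except without JMJD1C-LKO replicate 2. Their summed levels were from 121724 to 124793 CPM in WT and from 110813 to 123107 CPM in the other group. The part of the other cell types in the values of the 10 genes was not tested, and in whole liver more cells of a type and more RNA per cell cannot be told apart.

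The wider set of known glucocorticoid targets was mostly higher as well. Of 38 other target genes, all tested, 29 were higher and 2 lower in the libraries labelled JMJD1C-LKO, and 7 did not pass the threshold. Over all genes tested, 14.6% were called higher and 13.4% lower. The median log2 fold change of the list was 0.91, against 0.006 over all genes. Without WT replicate 2, 19 were higher and 2 lower, and without WT replicate 1, 20 were higher and 2 lower. Many of these genes also respond to insulin, cyclic AMP or stress.

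The 6 called higher with the smallest p were metallothioneins, a secreted binding protein, amino acid enzymes and a signalling inhibitor. Mt2, a metallothionein, measured 29.3 and 23.7 CPM in WT and 159 and 204 CPM in the libraries labelled JMJD1C-LKO (2.77 ± 0.14, adjusted p = 1e-05). Mt1, its close relative, went from 75.7 and 63.0 CPM to 302 and 390 CPM (2.32 ± 0.13, adjusted p = 1.6e-05). Both metallothioneins were thus at least 3 times higher in each library labelled JMJD1C-LKO than in any WT library. Igfbp1, which binds insulin-like growth factors, was at 4.92 and 6.19 CPM in WT and 375 and 830 CPM in the other group (6.76 ± 0.37, adjusted p = 1.1e-05), the largest change in the list. Tat, which degrades tyrosine, was at 592 and 516 CPM and then 1992 and 2908 CPM (2.15 ± 0.16, adjusted p = 5.7e-05). Sds, which degrades serine, was at 102 and 86.3 CPM and then 254 and 333 CPM (1.64 ± 0.13, adjusted p = 7.5e-05). These 2 enzymes feed amino acid carbon into gluconeogenesis. Ddit4, an inhibitor of mTORC1, was at 4.05 and 4.22 CPM in WT and 41.0 and 84.0 CPM in the other group (3.92 ± 0.30, adjusted p = 5.8e-05).

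The 2 lower genes belong to a stress-response family in which Gadd45g went the other way. Gadd45a was at 9.32 and 7.30 CPM in WT and 1.92 and 1.4 CPM in the libraries labelled JMJD1C-LKO (−2.33 ± 0.21, adjusted p = 0.00014). Gadd45b was at 11.96 and 12.10 CPM and then 3.85 and 6.24 CPM (−1.25 ± 0.20, adjusted p = 0.0019). Gadd45g, named here after its value was seen, was at 11.5 and 12.4 CPM in WT and 55.1 and 99.0 CPM in the other group (2.69 ± 0.23, adjusted p = 9.8e-05). For all 3 genes the groups did not overlap.

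**Figure D3:**
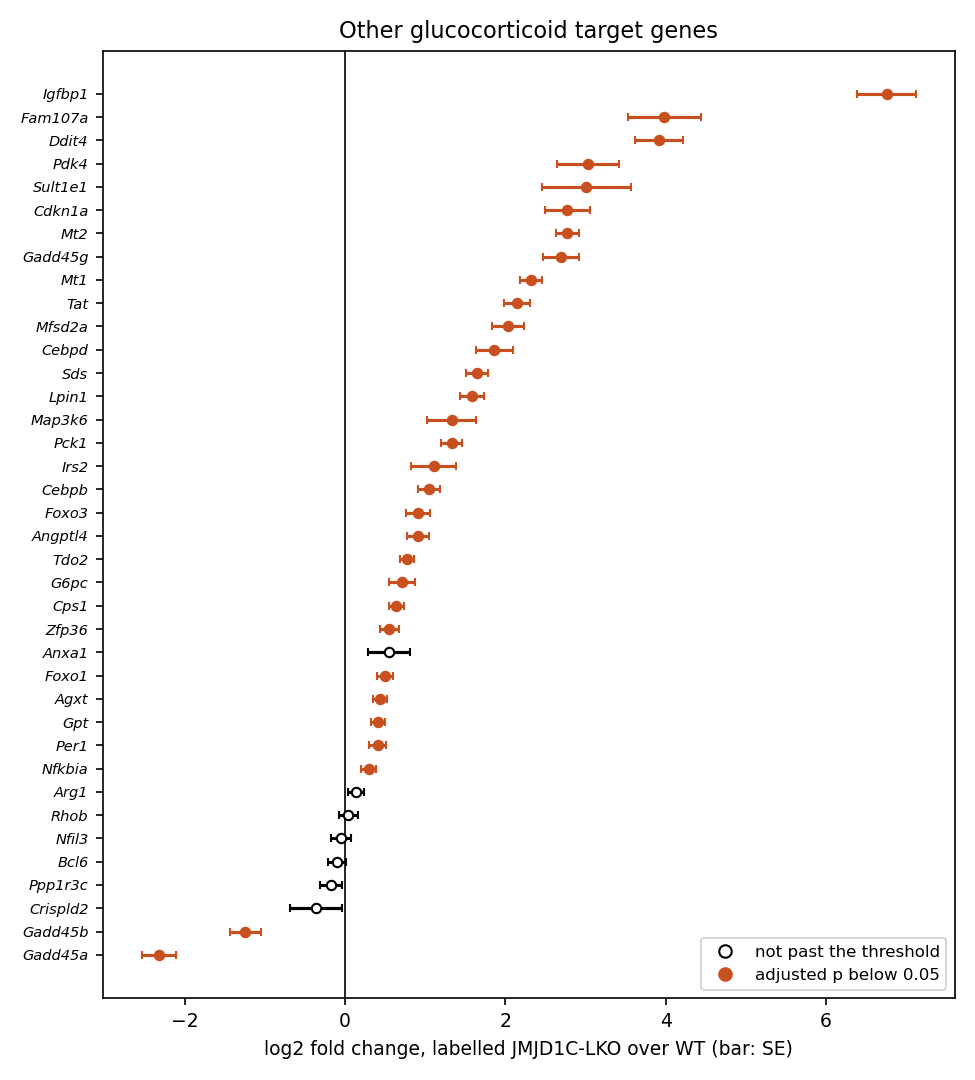
The log2 fold change of 38 other glucocorticoid target genes with its standard error, libraries labelled JMJD1C-LKO over WT, sorted by value. Filled points passed an adjusted p of 0.05: 29 lie to the right of 0 and 2, Gadd45b and Gadd45a, to the left.

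Upstream of the receptor, a list made up mostly of genes that handle the hormone was read. Of the 9 ligand supply and breakdown genes tested, 1 was lower, 1 was higher and 7 did not pass. These counts were near the shares over all genes tested, 13.4% lower and 14.6% higher. Serpina6, the corticosteroid-binding globulin that the liver secretes, was at 438 and 413 CPM in WT and 233 and 184 CPM in the libraries labelled JMJD1C-LKO (−1.03 ± 0.11, adjusted p = 0.00031). Srd5a1, a 5α-reductase that inactivates the hormone, was at 55.1 and 52.1 CPM and then 85.2 and 66.2 CPM (0.50 ± 0.11, adjusted p = 0.011), and this call was lost without WT replicate 1 (adjusted p = 0.074) or WT replicate 2 (adjusted p = 0.12).

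Of the 12 tested chaperones and co-chaperones that fold and hold the receptor, 8 were lower, none was higher and 4 did not pass the threshold. Over all genes tested, 13.4% were called lower and 14.6% higher. The 12 chaperone genes had a median log2 fold change of −0.37. Their summed level was 6065 and 6006 CPM in WT and 4896 and 4638 CPM in the libraries labelled JMJD1C-LKO. Hsp90aa1, the inducible cytosolic heat-shock protein, was at 865 and 840 CPM in WT and 526 and 486 CPM in the other group (−0.75 ± 0.08, adjusted p = 0.00035). Ptges3, its co-chaperone in the mature receptor complex, was at 101 and 98.1 CPM and then 74.0 and 63.3 CPM (−0.53 ± 0.09, adjusted p = 0.0029). Fkbp4, which competes with Fkbp5 for the receptor complex and favours nuclear transport, was at 253 and 258 CPM and then 191 and 150 CPM (−0.59 ± 0.11, adjusted p = 0.0045, and 0.058 without WT replicate 2), opposite in sign to Fkbp5. The count of lower chaperones was 5 without WT replicate 1 and 2 without WT replicate 2.

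Of 15 receptor coregulators, 3 were higher and 2 lower, near the shares over all genes tested (14.6% higher and 13.4% lower). Ppargc1a, the coactivator of gluconeogenic genes, was at 8.82 and 8.91 CPM in WT and 25.5 and 33.1 CPM in the libraries labelled JMJD1C-LKO (1.72 ± 0.13, adjusted p = 5.4e-05). The other calls were smaller: Stat5b changed by 0.46 ± 0.09 (adjusted p = 0.0053) and Crtc2 by 0.39 ± 0.09 (adjusted p = 0.011). The corepressor Ncor1 changed by −0.28 ± 0.08 (adjusted p = 0.024), and Carm1, an arginine methyltransferase, by −0.36 ± 0.11 (adjusted p = 0.037). Of these 5 only Ppargc1a stayed past the threshold without WT replicate 1 and without WT replicate 2.

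Immediate early genes and clock genes, which respond to handling and to time of day, were also read. The shares called over all genes tested were 14.6% higher and 13.4% lower. Of 11 immediate early genes tested, 5 were higher and none lower. A lower call appeared only without JMJD1C-LKO replicate 2. The count of higher genes was 3 without WT replicate 1, 2 without WT replicate 2 and 3 without JMJD1C-LKO replicate 2. Btg2, an antiproliferative gene, was at 5.61 and 5.85 CPM in WT and 21.0 and 36.3 CPM in the libraries labelled JMJD1C-LKO (2.32 ± 0.22, adjusted p = 0.00017). The AP-1 genes Jun (0.80 ± 0.11, adjusted p = 0.001) and Junb (0.71 ± 0.15, adjusted p = 0.0091) were also higher, Junb not when either WT library was left out. Of 14 clock genes tested, 1 was higher and 4 lower. The count of lower genes was 1 without WT replicate 1 or WT replicate 2 and 7 without JMJD1C-LKO replicate 1. Ciart was higher (0.60 ± 0.08, adjusted p = 0.0011), and Per2 (−0.48 ± 0.08, adjusted p = 0.0031), Per3 (−0.46 ± 0.08, adjusted p = 0.0041) and Nr1d1 (−0.37 ± 0.07, adjusted p = 0.0062) were lower. Per1, a clock gene that the receptor also induces and that stood on the list of other targets, went from 39.5 and 36.7 CPM to 45.4 and 55.4 CPM (0.40 ± 0.10, adjusted p = 0.018). The part of handling or sampling time in the values of the 10 genes was not tested.

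**Figure D4:**
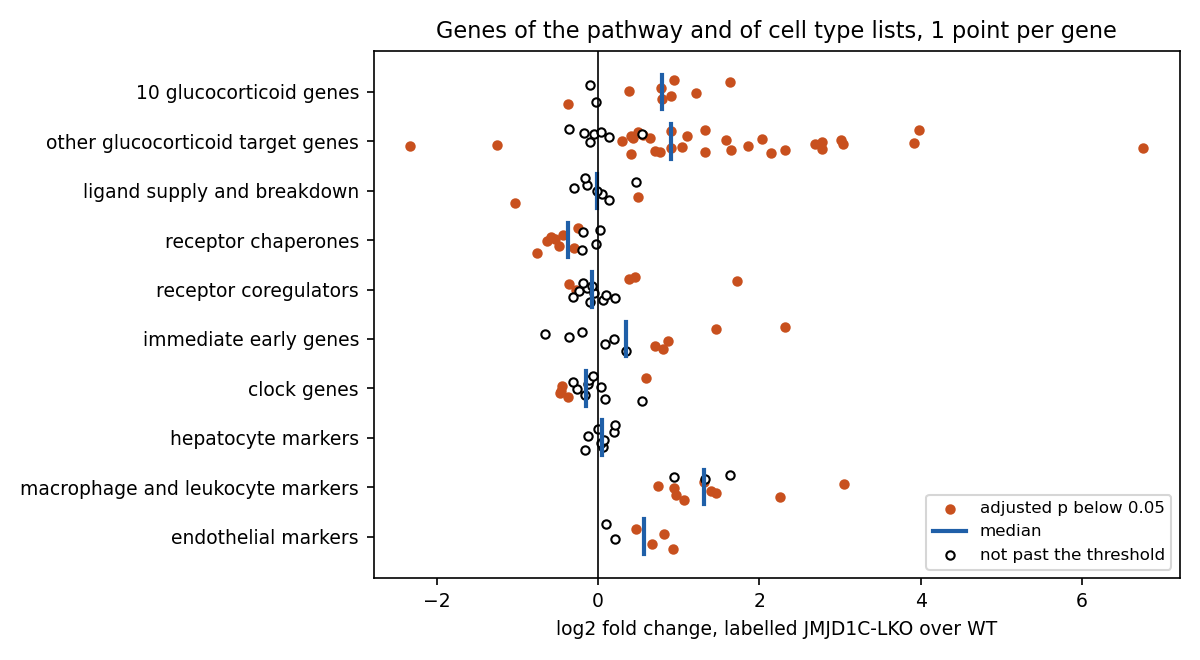
The log2 fold change of every tested gene of 10 lists, libraries labelled JMJD1C-LKO over WT, with the median of each list as a line and genes past an adjusted p of 0.05 filled. The 10 glucocorticoid genes (median 0.79) and the 38 other targets (median 0.91) lie mostly to the right of 0, the receptor chaperones (median −0.37) to the left, and the macrophage and leukocyte markers (median 1.32) to the right.

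In the chromatin data, ATAC-seq summits were almost absent from the starts of these genes, and most of all genes had none at a start either. A start was counted as marked where a summit lay within 1000 bp of a RefSeq transcript start. No member had one in either WT fasted sample, where 20.2% and 9.28% of 13825 genes did. In WT refed replicate 1 only Dusp1 was marked (16.7% of all genes) and in WT refed replicate 2 none (10.5%). Among the samples labelled JMJD1C-LKO, Dusp1 was marked in replicate 1 (6.66% of all genes) and no member in replicate 2 (1.31%). No member was marked in both samples of any group, and the other 38 targets had between 0 and 4 marked genes per sample. The lists fell from 5220 and 7632 summits in WT fasted to 5027 and 3119 in WT refed and 1450 and 825 in the samples labelled JMJD1C-LKO, so the lists differ in reach. They hold no counts and the depth is unknown, so a start without a summit is one where none was called. With 2 samples against 2, the smallest two-sided p of an exact permutation test is 0.333, and no test was made.

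The Dusp1 summits were weak. The summit of WT refed replicate 1 lay 208 bp upstream of the start with a −log10 q of 3.39, rank 3750 of 5027, over the window printed above. The summit of JMJD1C-LKO refed replicate 1 lay 55 bp upstream with a −log10 q of 3.09, rank 1392 of 1450. In the second replicates the nearest summits lay 424646 bp and 154589 bp away.

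Zbtb16 had intron summits far from its start. The recurrent one, 95121 to 95140 bp downstream of the start, lies in the TAGG repeat. It had a −log10 q of 18.8 in WT fasted replicate 2 (rank 208 of 7632). In WT refed replicates 1 and 2 it had 7.01 (rank 1564 of 5027) and 8.48 (rank 943 of 3119). In JMJD1C-LKO refed replicate 1 it had 6.43 (rank 823 of 1450). These scores are not compared between samples. Windows with at least 4 TAGG copies in a row were 0.421% to 1.41% of the summits per sample. The summit with receptor motif letters lay 112176 bp downstream of the start in WT fasted replicate 1 (−log10 q 3.24, rank 4611 of 5220). Of the 5220 windows of that sample 19 held GNACANNNTGTNC (0.364%) and 9.18% held AGAACA. It had no counterpart in WT fasted replicate 2 or in any refed sample.

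H3K9me2 summits lay at most of these starts in 3 of the 4 samples, in which most of all genes were marked too. In WT fasted replicate 1, 8 of the 10 members had a summit within 1000 bp of a start (51.6% of all genes), and in WT fasted replicate 2, 9 did (74.1%). In WT refed replicate 2 all 10 did (61.6%), and in WT refed replicate 1 none did (0.123%). The last sample stood apart from the others, with 1297 summits against 7690, 13456 and 9929, and with 17 of 13825 genes marked. In both fasted samples 8 members were marked, all but Hsd11b1 and Errfi1, where 51.3% of all genes were. In both refed samples 0 were, where 0.0723% of all genes were, and without WT refed replicate 1 it was 10. No difference between fasted and refed liver can therefore be read from these counts.

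Among the members, the summits lay mostly just downstream of the start. Klf15 had some of the strongest. Its summit was 305 bp downstream in WT fasted replicate 1 (rank 203 of 7690), 242 bp in replicate 2 (rank 571 of 13456) and 335 bp in WT refed replicate 2 (rank 1549 of 9929). Klf9 had one at 300 bp (rank 477), 253 bp (rank 1197) and 608 bp (rank 460) in the same order of samples. These were the highest-scoring summits within the window at both genes, and weaker ones lay upstream as well, at 461 bp (WT fasted replicate 2) and 411 bp (WT refed replicate 2) for Klf15 and at 832 bp (WT fasted replicate 2) for Klf9. The Fkbp5 summit was 380, 347 and 314 bp downstream, within an intron in all 3 samples. The Dusp1 summits inside the gene were 651, 715 and 468 bp downstream. They ranked 3783 and 2442 in the fasted samples and 413 in WT refed replicate 2, and the latter has no second sample beside it.

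Errfi1 and Hsd11b1 were the exceptions. The Errfi1 summits of the fasted samples lay 1975 and 1580 bp downstream of the nearest start, outside the window, while WT refed replicate 2 had one at 329 bp downstream and another at 434 bp upstream. Hsd11b1, the most abundant of the 10 genes per length, had no start summit in WT fasted replicate 1 and only modest ones at 287 bp in WT fasted replicate 2 (rank 9093 of 13456) and 358 bp in WT refed replicate 2 (rank 8817 of 9929). At Sgk1 the summits at 21994258 in WT fasted replicate 2 and 21994267 in WT refed replicate 2 ranked 6087 and 4473. They lay 368 and 377 bp downstream of the start whose promoter is printed above. The summit of WT fasted replicate 1, at 21994310, lay in the same stretch, 356 bp upstream of the neighbouring start at 21994666. WT fasted replicate 2 and WT refed replicate 2 also had summits 354 and 333 bp downstream of that neighbouring start (ranks 7663 and 9409). WT fasted replicate 2 had 4 Sgk1 start summits in all, and WT refed replicate 2 had 2. Tsc22d3 was marked at the downstream start alone, 117 and 316 bp upstream in the fasted samples and 140 bp downstream in WT refed replicate 2. Zbtb16 was marked at 442, 105 and 973 bp downstream, and Nr3c1 had its nearest summit at 89, 134 and 247 bp downstream.

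**Figure D5:**
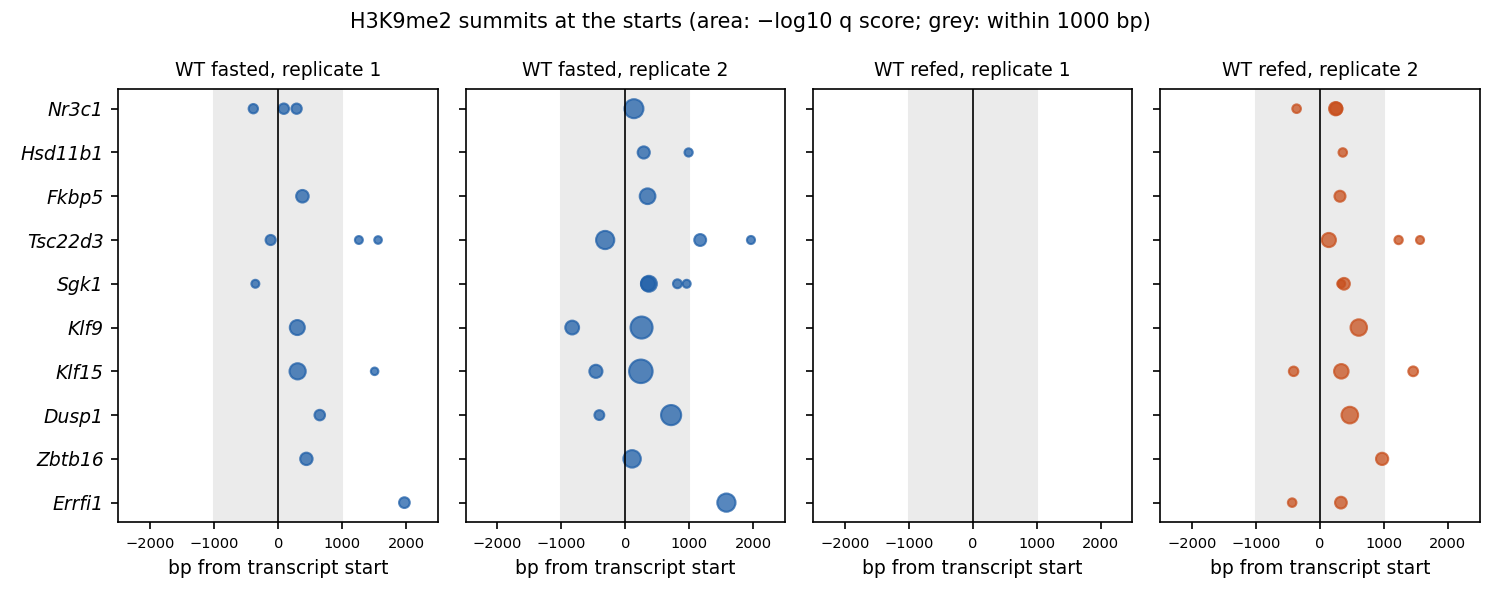
Position of each H3K9me2 summit within 2500 bp of the nearest RefSeq transcript start of the 10 genes, in bp with positive values downstream, for the 4 samples, with point area by −log10 q score and the 1000 bp window in grey. Within the window, 8, 9, 0 and 10 genes have a summit from left to right, and the panel of WT refed replicate 1 is empty.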

How the data were processed

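The samples were 4 RNA-seq, 6 ATAC-seq, 4 H3K9me2 ChIP-seq and 4 input libraries (inputs served only as the authors' controls). Groups came from sample titles and genotypes. The 10 members and all gene lists were chosen with earlier results of these data known.

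The RNA values are estimated counts of each RefSeq transcript, as the authors deposited them, unscaled. The submitters' processing notes list HISAT2, Partek, DESeq2, BWA and MACS2 2.1.1 and the build mm10, without roles, and the counting method is not given in the sources used here. By the study's methods, ATAC-seq reads were aligned with BWA and ChIP-seq reads with Bowtie2, with input as control, and peaks were called with MACS2. For peaks, the authors deposited summits called per sample, scored by the q-value on a −log10 scale. A deposited table of the authors' own comparison (fold change, p-value and FDR per transcript) was not used.

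Here, estimated counts were summed per gene, rounded, filtered with filterByExpr and tested with edgeR 4.0.16 (glmQLFit and glmQLFTest, TMM, R 4.3.3) with no block, and p-values were adjusted by Benjamini-Hochberg over 14151 genes at a threshold of 0.05. The SE of a fold change was taken from the F statistic. The alternatives were RLE size factors, DESeq2 1.42.0, no filter, the highest transcript per gene, a replicate block and leaving out each library. The edgeR script and the summit script were tested on simulated data. Replicates were not duplicates (chi-square per gene 12.9 in WT and 32.6 in JMJD1C-LKO). Reads from overlapping or antisense genes may be shared, as strand was not stated for the counting.

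Transcript starts, exons and sequences came from RefSeq on GRCm38.p6, which is mm10. Summits were matched to starts within 1000 bp over the 13825 tested genes with an annotated start. Scores were ranked within a sample and not compared between samples. Named genes were the 10 members, Jmjd1c, and genes past the threshold from each other list that was not a marker list. Those were up to 3 of smallest p in each direction (6 for the other target genes). Gadd45g, Per1 and Cd74 were named outside this rule. A sequence window and the values tied to it are not reported here.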

Additional observations from a re-analysis of the deposited data

How the results depend on the processing

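Of the 10 genes, 8 passed the threshold, and 8 also with RLE size factors, DESeq2, no filter or a replicate block, 7 with the highest transcript per gene and 6 to 8 with each library left out. The replicate numbers did not pair the samples (correlation of deviations −0.0046 between the replicates numbered 1), and the replicate block changed no call among the 10 genes. The other targets past the threshold were 31, between 29 and 31 under the alternatives with all libraries, and 21 to 33 with a library left out. Over all genes 2066 were higher and 1892 lower, against 1263 and 1063 with the highest transcript per gene, 789 and 476 without WT replicate 1, and 660 and 408 without WT replicate 2. The sign turned with a library left out for Hsd11b1 and Dusp1, neither of them called: Hsd11b1 ranged from −0.10 to 0.033 and Dusp1 from −0.27 to 0.046. The Jmjd1c value turned from −0.14 to 0.10 with the highest transcript per gene (adjusted p = 0.64). The cause was not tested.

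For H3K9me2 in both WT fasted samples, 8 members were marked, 2 with equal numbers of the strongest summits and 3 with a window from 1000 bp upstream to 100 bp downstream, a window that leaves out most of the summits. With a library left out the count was 8 to 9. In WT refed it was 0 in both samples, 10 with a summit in at least 1 sample, and 0 to 10 with a replicate left out. For ATAC-seq the count of 0 became 1 (Dusp1) with a summit in at least 1 sample for WT refed as well as JMJD1C-LKO refed livers, and 0 to 1 with a replicate left out. The depth of the peak samples is unknown, and 2 samples per group limit every comparison.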
